A study of Homo sapiens with 18 samples.

Results

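The measured genes were 10 regulators of DNA methylation and of the Polycomb repressive complex 2 (PRC2), which methylates lysine 27 of histone H3. They were chosen by name: DNMT1, UHRF1, UHRF2 and HELLS for the maintenance of methylation, DNMT3A and DNMT3B for its de novo placement, and EZH2, EZH1, SUZ12 and EED for the PRC2 core. On the array 23 of 54675 probe sets carried the symbol of exactly 1 of these genes. A further probe set, 213971_s_at, matched both SUZ12 and its pseudogene SUZ12P1 and was kept apart.

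The cells were HCT116, an established human colorectal carcinoma line, in 9 isogenic clones with 2 biological replicates each, which gave 18 one-colour Affymetrix arrays. IDH1 acts in the cytosol and IDH2 in mitochondria, where each turns isocitrate into alpha-ketoglutarate, and the study asked how their mutations relate to the epithelial-mesenchymal transition. The 3 IDH1-mutant clones were 2C11 and 2H1, both IDH1 R132H/+, and 3A4, IDH1 R132C/+. The 4 IDH2-mutant clones were 8G12 and 17H5, both IDH2 R140Q/+, and 47C2 and 45G3, both IDH2 R172K/+. The wild-type group held 16F8 and the parental line. Clone 16F8 was targeted at IDH1 with R132C but did not express the mutant allele, so the labels call its mRNA wild-type, and the parental line was not targeted. All cells were untreated and were grown for 6 days at 5% CO2, and total RNA was amplified and labelled with biotin. Every genotype was thus represented by 1 or 2 clones of a single line, and R132C as an expressed mutation by 3A4 alone.

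DNA methylation is copied at each S phase. UHRF1 binds hemimethylated CpG sites behind the replication fork and brings in DNMT1, while HELLS (LSH), an SNF2-family remodeler that works with CDCA7, opens nucleosomal DNA to this machinery. DNMT3A and DNMT3B place new methyl groups, and DNMT3B is the de novo enzyme known for its activity in colorectal cancer cells. In PRC2, EZH2 or its paralog EZH1 is the catalytic subunit, SUZ12 holds the complex together and EED reads the mark and stimulates the enzyme. Mutant isocitrate dehydrogenases make 2-hydroxyglutarate, which is known to inhibit the TET and Jumonji demethylases that oppose both marks.

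Signals below are MAS5 values on a linear scale, and differences are on the log2 scale of the signal plus 2.2. An error beside a difference is a standard error and one beside a signal a standard deviation. Tests covered probe sets that, in 1 clone or more, were at or above the array median on both replicates, and a call means a limma p-value, adjusted by Benjamini-Hochberg over 29070 probe sets, under 0.05. Of the 23 member probe sets 21 were tested, and all 10 genes had at least 1 that reached the median in every clone. Probe sets 244428_at (DNMT3A) and 1566191_at (SUZ12) were not tested, with signals up to 10.9 and 2.9. Probe sets 218457_s_at (DNMT3A), 210656_at (EED), 239198_at (EZH1) and 211310_at (EZH1) reached the median in only 4, 5, 5 and 1 of the 9 clones, so they entered through the clones in which they were high. Each gene is represented by its probe set with the highest mean.

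The arrays met the description of a colon carcinoma line in part. EPCAM, KRT8, KRT18, KRT19, CDH1 and CDX2 lay at or above the array median in all 18 arrays, while VIL1, LGALS4 and CDH17 of the same list did so in none. All 4 endothelial markers and 5 of 7 fibroblast markers were below the median in every array. COL1A1 (187 to 358.5) lay above it in all 18 and PDGFRB (5.6 to 17.2) in 1. Of 6 haematopoietic markers on the array, LYZ (8.2 to 142.1) reached the median in 14 arrays, HBB (6.4 to 24.5) in 7 and the other 4 in none. IDH1 ran between 1036.1 and 2284.4 and IDH2 between 90.4 and 305.1, which measure both alleles together and check no genotype. Replicate arrays of a clone correlated at 0.9862 to 0.9942 and arrays of different clones at 0.9525 to 0.989. Poly-A spike-in signals set 4 arrays apart by a factor of 1.7: replicate 2 of 8G12 and replicate 1 each of 2C11, 16F8 and parental. At the other end 45G3 replicate 1 had a mean log2 poly-A signal of 5.72, with the next array, 17H5 replicate 2, at 6.18. It was kept with the arrays of lower signal.

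Across the 9 clones, the members that varied most beyond replicate error were HELLS, EED, UHRF1, DNMT3B, EZH2 and DNMT1. The moderated F test for any difference among the clones called 11 of the 21 tested member probe sets, in 7 genes, against 42.8% of all tested probe sets. The called ones were all 5 of HELLS (adjusted p between 1.2e-06 and 0.002), 209572_s_at of EED (7.66e-06), UHRF1 (0.000872), DNMT3B (0.001), EZH2 (0.00132), DNMT1 (0.00276) and 203249_at of EZH1 (0.039). No probe set of UHRF2, DNMT3A or SUZ12 passed, with representative adjusted p of 0.336, 0.387 and 0.595. The members' share, 52.4%, lay close to the background.

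**Figure D1:**
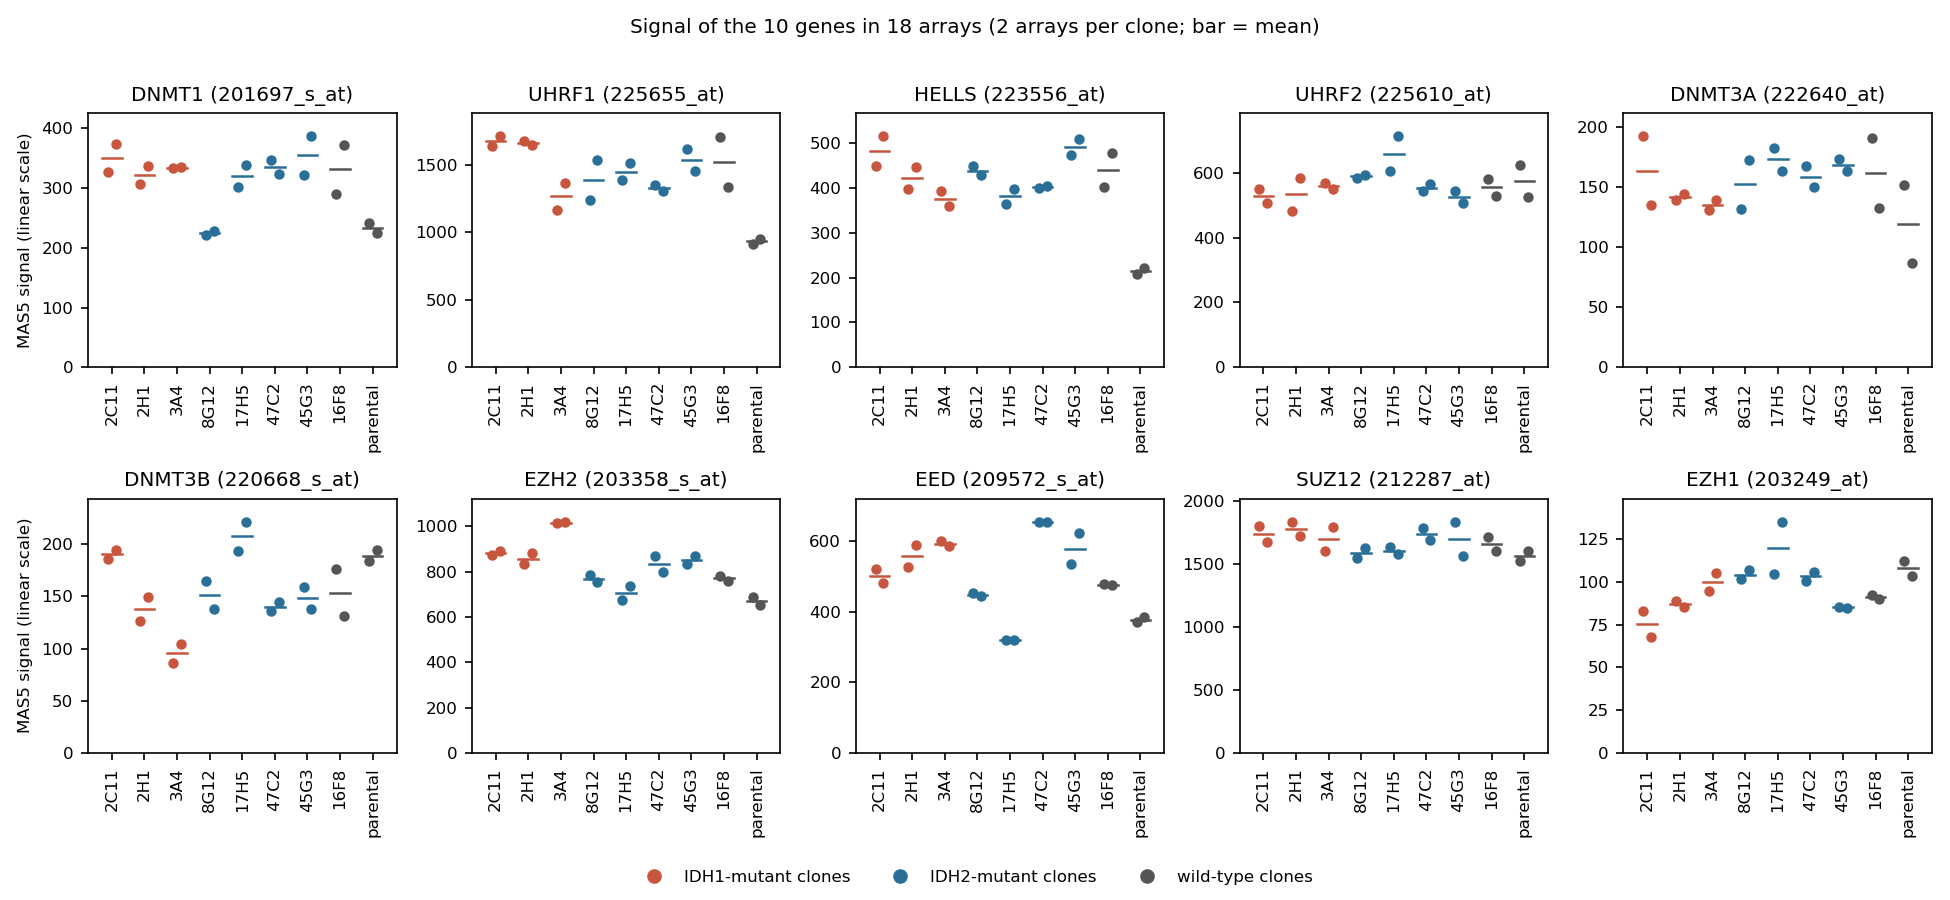
MAS5 signal (linear scale, each panel from 0) of the representative probe set of the 10 genes in the 9 clones; each point is 1 of 2 arrays of a clone and the bar their mean. HELLS and UHRF1 are lowest in parental, DNMT1 is low in 8G12 and parental, DNMT3B is lowest in 3A4 and EED is lowest in 17H5, while SUZ12 lies between 1524.3 and 1833.6 throughout.

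The comparison of single clones with parental asks how a clone differs from the untargeted line. These 8 comparisons share the 2 parental arrays, so their calls are not independent, and they compare clones, not genotypes. Called member probe sets out of 21 numbered 10 in 2C11 (background 20.5%), 10 in 2H1 (25.9%), 9 in 3A4 (31.5%), 9 in 45G3 (23.9%), 8 in 47C2 (21.9%), 7 in 17H5 (8.38%), 6 in 8G12 (13.4%) and 8 in 16F8 (16.4%). HELLS alone holds 5 of the 21 probe sets, so these counts are not counts of genes. The calls fell in 6 genes in 2C11, 2H1 and 3A4, 5 in 45G3 and 47C2, 4 in 16F8, 3 in 17H5 and 2 in 8G12. Member medians were between 0.13 in 8G12 and 0.46 in 47C2, while the medians of all tested probe sets were between 0.01 and 0.05. DNMT3B in 2H1 and 3A4 and EZH1 in 2C11 were the called members that were lower than in parental. The non-mutant clone 16F8, with 8 calls, lay within the range of 6 to 10 of the mutant clones.

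The comparison of each mutant clone with 16F8 asks the same with the targeted wild-type clone as the reference, and these 7 comparisons share the 16F8 arrays. Here 0 member probe sets were called in 2C11 (background 1.41%), 2H1 (12.3%), 8G12 (0.433%) and 45G3 (1.53%), with 1, 2, 1 and 1 members at an unadjusted p under 0.05. In 3A4, 7 of 21 were called (21.7%), in 17H5 1 (5.77%) and in 47C2 1 (4.38%). The calls concerned HELLS, DNMT3B, EZH2 and EED in 3A4 and EED alone in 17H5 and 47C2. A difference that missed the threshold against 16F8 does not show equal levels, and its interval is given with the gene.

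**Figure D2:**
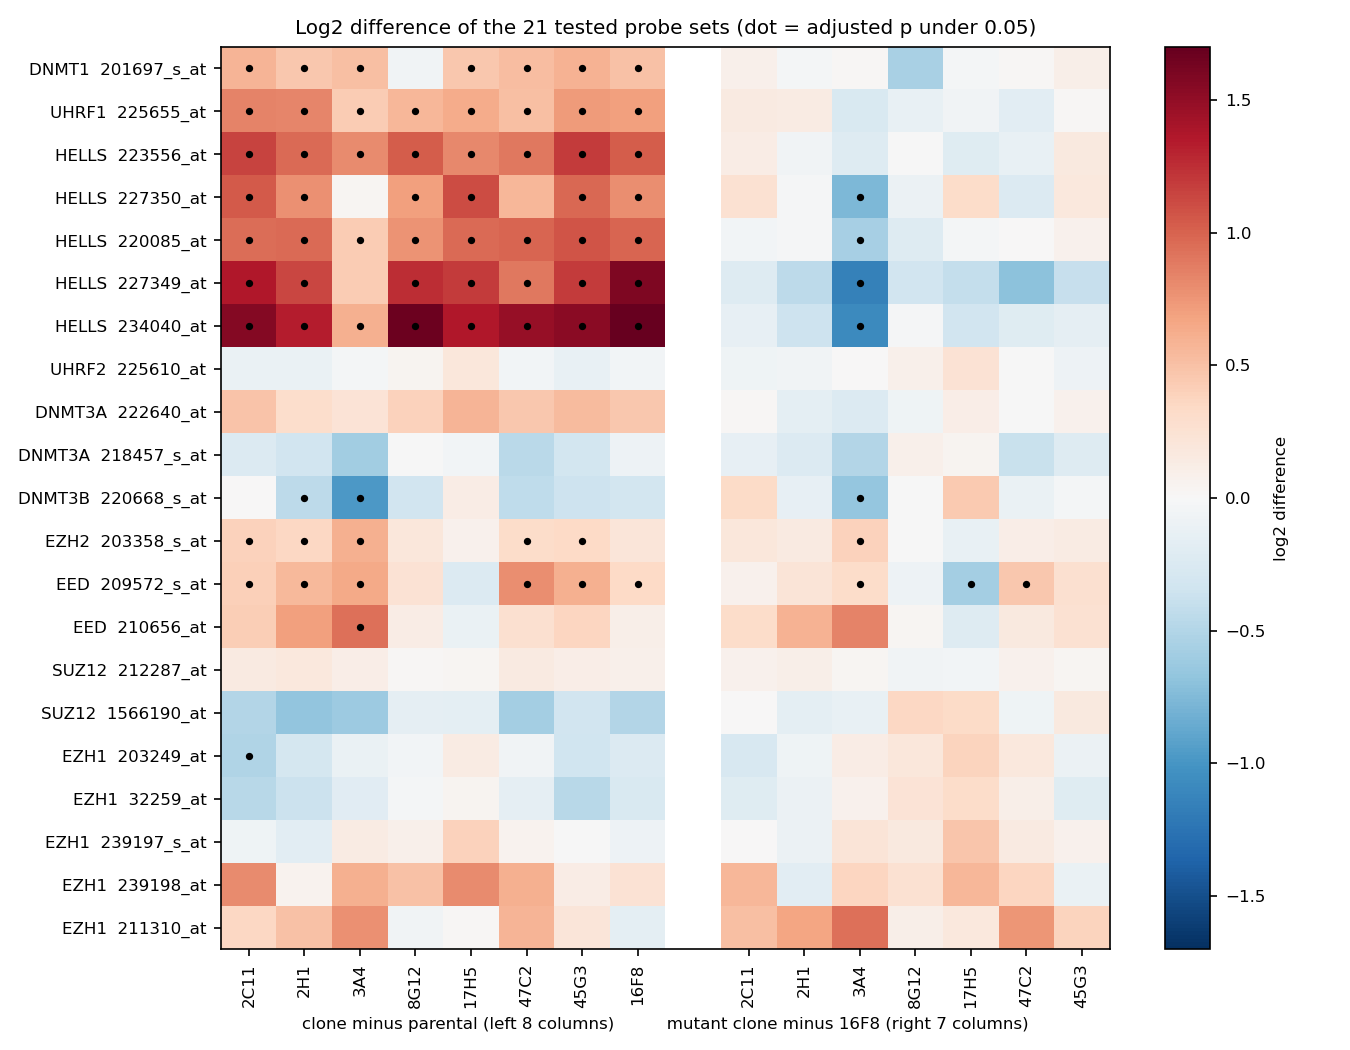
Log2 difference of the 21 tested member probe sets (rows) in 8 clones against parental (left columns) and in 7 mutant clones against 16F8 (right columns); red is higher and blue lower, and a dot marks an adjusted p under 0.05. The HELLS and UHRF1 rows are red in the left columns, 16F8 included, and mostly pale in the right ones, where 3A4 holds 7 of the 9 dots.

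Among the maintenance factors, HELLS differed most from parental. It was higher than in parental by 1.74-fold (3A4) to 2.27-fold (45G3), and the targeted wild-type clone 16F8 was among the higher ones with 2.03-fold. The signal of 223556_at was 448.0 and 515.1 in 2C11, 397.5 and 445.6 in 2H1 and 392.0 and 359.1 in 3A4. It was 448.2 and 428.8 in 8G12, 364.8 and 396.6 in 17H5, 400.3 and 404.8 in 47C2, and 472.4 and 509.2 in 45G3. In the wild-type clones it was 402.5 and 478.6 in 16F8, against 207.7 and 221.7 in parental. Both parental arrays lay below all 16 others, and the arrays of 16F8 lay within the range of the mutant clones.

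The log2 differences of HELLS from parental were 1.15 in 2C11, 0.96 in 2H1, 0.80 in 3A4, 1.02 in both 8G12 and 16F8, 0.82 in 17H5, 0.90 in 47C2 and 1.18 in 45G3, each ± 0.12. The largest adjusted p was 0.000361, in 17H5. Against 16F8 the differences were between -0.23 (3A4, 95% interval -0.47 to 0.02) and 0.16 (45G3, -0.09 to 0.40), and none was called. The other HELLS probe sets kept the direction against parental, with 227349_at between 0.43 and 1.58, 234040_at between 0.61 and 1.69, 220085_at between 0.43 and 1.06 and 227350_at between 0.03 and 1.11. Of these, 227349_at was not called in 3A4 (0.43, adjusted p = 0.136), and 227350_at was called neither in 3A4 (0.03, 0.924) nor in 47C2 (0.56, 0.0708).

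In 3A4 the HELLS probe sets differed in size. Against 16F8, 4 of the 5 were called lower there, by -1.15 ± 0.21 for 227349_at (adjusted p = 0.000941), -1.08 ± 0.15 for 234040_at (6.51e-05), -0.76 ± 0.21 for 227350_at (0.0166) and -0.56 ± 0.15 for 220085_at (0.0111), whereas 223556_at gave -0.23 ± 0.12 (0.185). With the high poly-A arrays modelled, 223556_at passed too (-0.30, adjusted p = 0.046). The signals of 234040_at were 45.6 and 41.6 in 3A4, against 96.5 and 92.6 in 16F8 and 29.8 and 25.9 in parental. The other 6 mutant clones had 234040_at signals between 71.3 and 98.6, so 3A4 stood between parental and all other clones. Over the 9 clone means the HELLS probe sets correlated pairwise at 0.728 to 0.954, and without parental at 0.522 to 0.89. The part of transcript each probe set reads was not analysed here.

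**Figure D3:**
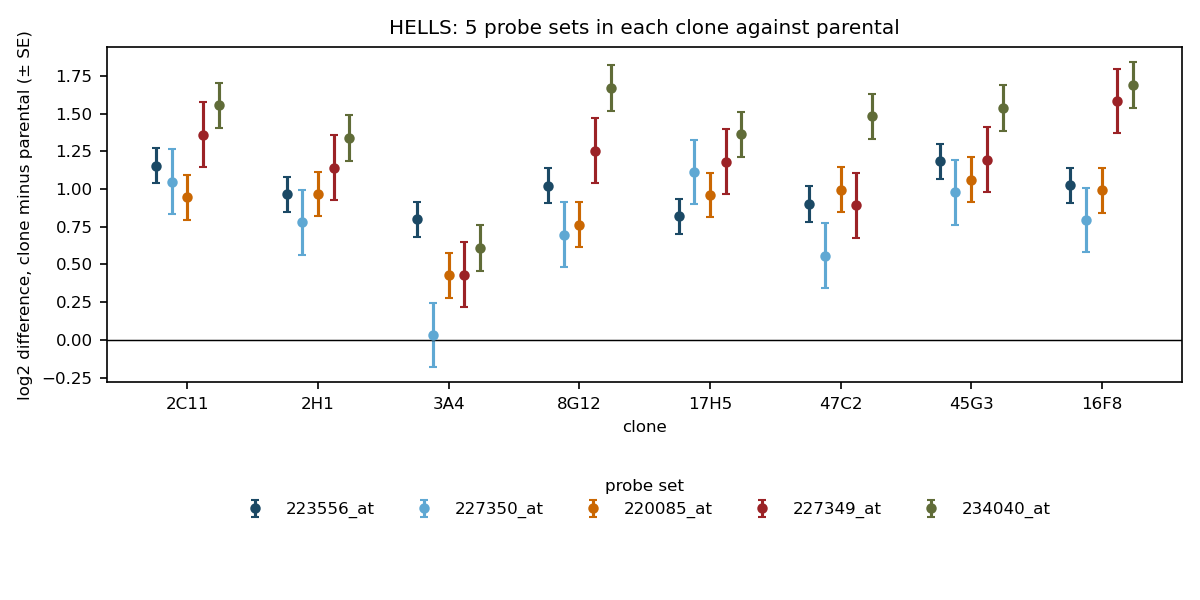
Log2 difference from parental (± SE) of the 5 HELLS probe sets in 8 clones. All points lie above 0, and in 3A4 the probe sets spread between 0.03 and 0.80 while 234040_at and 227349_at lie highest in 16F8.

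UHRF1, the reader of hemimethylated DNA, showed the same order of clones at its low end. Its signal was 1640.2 and 1712.8 in 2C11, 1680.2 and 1645.2 in 2H1 and 1168.7 and 1365.0 in 3A4. It was 1236.7 and 1539.4 in 8G12, 1388.5 and 1511.0 in 17H5, 1353.4 and 1306.3 in 47C2, and 1620.8 and 1456.0 in 45G3. In 16F8 it was 1707.6 and 1336.8, against 914.0 and 952.4 in parental. Parental again lay below every other array, and 3A4 was the next lowest clone by its mean.

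UHRF1 was called higher than in parental in each of the 8 clones, by 0.84 in 2C11, 0.83 in 2H1, 0.72 in 45G3, 0.69 in 16F8, 0.63 in 17H5, 0.56 in 8G12, 0.51 in 47C2 and 0.44 in 3A4, each ± 0.12. The adjusted p was 0.0123 in 3A4 and 0.00678 or less in the others. Leaving out 1 array ended 4 of these calls without turning their direction: in 3A4 (0.32, adjusted p = 0.143 without 3A4 replicate 2, and 0.41, 0.066 without parental replicate 1), 8G12 (0.41, 0.0822 without its replicate 2), 17H5 (0.57, 0.0627 without its replicate 2) and 47C2 (0.48, 0.0599 without its replicate 1). Against 16F8 the differences were between -0.26 (3A4, 95% interval -0.52 to 0.00) and 0.15 (2C11, -0.11 to 0.41), with none called. Without 16F8 replicate 2, the lower of that pair, the 3A4 difference was -0.43 and passed (adjusted p = 0.0375).

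The promoters of both genes held letters of the E2F consensus, the motif of the factors that turn on S phase genes. The motifs TTTCCCGC, TTTCGCGC, TTTGGCGC and TTTGCCGC were searched on both strands in windows of 300 bases, 250 before to 50 after each annotated promoter start, from RefSeq on GRCh38.p14. A promoter start need not be the gene start: UHRF1 begins at chr19:4903080, while its first window begins at 4909251. The matches shown do not overlap each other. All 10 genes matched a window by symbol, with 18 windows in all. The 120 bases before a promoter start of UHRF1 and of HELLS are shown because these 2 genes separated all clones from parental, with the matches in capitals. The UHRF1 stretch is chr19:4909381-4909500 on the plus strand and the HELLS stretch chr10:94545668-94545787 on the plus strand.
UHRF1: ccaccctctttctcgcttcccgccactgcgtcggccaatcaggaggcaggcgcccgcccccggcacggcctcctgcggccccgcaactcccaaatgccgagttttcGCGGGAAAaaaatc
HELLS: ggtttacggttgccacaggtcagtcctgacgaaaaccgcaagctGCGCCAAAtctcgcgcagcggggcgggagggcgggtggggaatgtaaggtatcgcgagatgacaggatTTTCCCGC
In the UHRF1 stretch the match was on the minus strand with its first base 14 before that promoter start. In HELLS one was on the minus strand 76 before and the other on the plus strand 8 before. A match stood in at least 1 window of 6 of the 10 members (DNMT1, UHRF1, HELLS, EZH2, EZH1 and SUZ12), and in 3.992% of all 27305 genes and 3.315% of all 35116 windows. DNMT3A, DNMT3B, UHRF2 and EED had none of these letters in their windows. The only DNMT3B window, chr20:32779602-32779901, lay away from the gene start at 32762385, which was not searched. The matches are a description of the sequence, and their part in the expression differences was not tested. They stood in SUZ12 and EZH1, which lacked the pattern of HELLS and UHRF1, and in 13 of the 21 listed S phase genes with a window.

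DNMT1, the maintenance methyltransferase, was higher than in parental in 7 of the 8 clones and not in 8G12. Its signal was 326.3 and 374.8 in 2C11, 306.4 and 337.6 in 2H1 and 333.2 and 335.7 in 3A4. It was 221.4 and 227.5 in 8G12, 302.5 and 339.5 in 17H5, 347.6 and 323.2 in 47C2, and 322.5 and 387.2 in 45G3. In 16F8 it was 290.9 and 372.3, against 241.4 and 225.2 in parental. The arrays of 8G12 overlapped those of parental, and all other arrays lay above both.

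The called DNMT1 differences from parental were 0.58 in 2C11, 0.46 in 2H1, 0.52 in 3A4, 0.46 in 17H5, 0.52 in 47C2, 0.60 in 45G3 and 0.49 in 16F8, each ± 0.13, with adjusted p between 0.00372 and 0.0423. In 8G12 the difference was -0.05 ± 0.13 (95% interval -0.34 to 0.23, adjusted p = 0.843). These calls rest on single arrays. Without parental replicate 2, only 2C11 (0.53, 0.0447) and 45G3 (0.55, 0.0338) passed, with all differences in the same direction. Leaving out 1 of a clone's own arrays ended the calls of 2C11 (adjusted p = 0.0648), 2H1 (0.129), 47C2 (0.0916), 45G3 (0.0534) and 16F8 (0.211). The 17H5 call was lost without the filter (0.0664), with quantile normalization (0.0719), without the variance trend (0.0714) and without either of its own arrays, among others. Against 16F8, 8G12 was at -0.55 ± 0.13 (95% interval -0.83 to -0.27), which missed the threshold (adjusted p = 0.104), and the other 6 mutant clones lay between -0.04 and 0.10. With the 4 arrays of high poly-A signal modelled, the 8G12 difference passed (adjusted p = 0.0446).

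UHRF2, the paralog of UHRF1, did not follow it. Its signals were between 482.7 and 713.0 in the mutant clones, 582.2 and 527.4 in 16F8, and 624.7 and 524.1 in parental. The differences from parental lay between -0.13 (45G3) and 0.20 (17H5, 95% interval -0.05 to 0.45) and none was called. The highest clone, 17H5, was 1.26-fold above the lowest, 45G3.

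Of the de novo enzymes, DNMT3B was lower in 3A4 than in any other clone. Its signal was 185.9 and 194.4 in 2C11, 126.7 and 149.7 in 2H1 and 86.4 and 104.7 in 3A4. It was 164.8 and 138.1 in 8G12, 193.7 and 221.6 in 17H5, 135.6 and 144.8 in 47C2, and 159.2 and 137.6 in 45G3. In 16F8 it was 175.9 and 131.2, against 184.2 and 194.0 in parental. The 3A4 arrays lay below all others, and 5 of the 7 mutant clone means lay below both wild-type means while 2C11 and 17H5 lay above both. How many of all tested probe sets show such an order was not computed.

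DNMT3B fell in 3A4 relative to parental by -0.97 ± 0.16, a fold of 0.509 (adjusted p = 0.000211), and relative to 16F8 by -0.66 ± 0.16, a fold of 0.631 (0.0065). It was lower than in parental in 2H1 (-0.45 ± 0.16, adjusted p = 0.0469), a call that was lost with the replicate block (0.0544), without the filter (0.0731), with quantile normalization (0.053), without the variance trend (0.0613) and when either array of 2H1 or parental, among others, was left out. The differences of 47C2 (-0.43, 0.066), 45G3 (-0.35, 0.125), 8G12 (-0.32, 0.212) and 16F8 (-0.31, 0.21) had the same sign without passing, and 2C11 (0.01) and 17H5 (0.13) did not share it. Against 16F8 the 3A4 call was lost without 3A4 replicate 1 (-0.53, adjusted p = 0.0797) or without 16F8 replicate 1 (-0.45, 0.11).

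DNMT3A had no call in any comparison, but its 2 arrays differed in parental and in the other clones that hold a high poly-A array. The signals of 222640_at were between 131.1 and 192.8 in the mutant clones and 191.5 and 132.8 in 16F8, against 151.9 and 87.3 in parental. In parental, 16F8, 2C11 (192.8 and 135.1) and 8G12 (132.1 and 173.2) the high poly-A array was the higher of the pair. The pairs of the other clones lay closer together, and the cause was not tested. The differences from parental lay between 0.23 (3A4) and 0.58 (17H5), all of 1 sign, with standard errors of 0.23 and adjusted p of 0.0933 or more. Without parental replicate 1, one of the high poly-A arrays, the range was 0.62 to 0.97 and 6 of 8 clones passed, and with the high poly-A arrays modelled all 8 passed (0.39 to 0.86). Without parental replicate 2 the range was -0.16 to 0.19 with no call. The dim probe set 218457_s_at lay at or below parental in all 8 clones (-0.59 to -0.01, none called) and correlated with 222640_at at -0.02 over the 9 clones.

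In PRC2, EZH2 was highest in 3A4 and lowest in parental. Its signal was 873.2 and 890.8 in 2C11, 833.4 and 881.6 in 2H1 and 1013.2 and 1021.4 in 3A4. It was 786.0 and 754.0 in 8G12, 673.5 and 735.8 in 17H5, 868.3 and 800.8 in 47C2, and 834.9 and 870.0 in 45G3. In 16F8 it was 782.6 and 761.0, against 690.0 and 651.8 in parental. The 3A4 arrays stood above all others, and all arrays of 2C11, 2H1, 47C2 and 45G3 stood above those of both wild-type clones, while 8G12 overlapped 16F8 and 17H5 overlapped parental.

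EZH2 rose against parental in 3A4 (0.60 ± 0.09, adjusted p = 9.62e-05), 2C11 (0.39, 0.00482), 2H1 (0.35, 0.00816), 45G3 (0.34, 0.0105) and 47C2 (0.31, 0.0194). The differences of 16F8 (0.20, 0.144), 8G12 (0.20, 0.169) and 17H5 (0.07, 0.685) did not pass. Without parental replicate 2 only 3A4 and 2C11 passed. Against 16F8 the 3A4 difference was called (0.40 ± 0.09, adjusted p = 0.00436), and those of 2C11 (0.19, 95% interval 0.00 to 0.38), 2H1 (0.15, -0.04 to 0.34), 45G3 (0.14, -0.05 to 0.33) and 47C2 (0.11, -0.08 to 0.30) were not.

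EED, the subunit that reads the histone mark, varied over a 2.05-fold range of clone means. Its 209572_s_at signal was 521.7 and 483.1 in 2C11, 526.1 and 590.9 in 2H1 and 600.4 and 586.0 in 3A4. It was 454.2 and 444.0 in 8G12, 320.3 and 320.6 in 17H5, 655.4 and 655.8 in 47C2, and 534.7 and 623.0 in 45G3. In 16F8 it was 478.2 and 476.1, against 372.0 and 384.4 in parental. Both IDH2 R172K clones lay above both R140Q clones, and 17H5 alone lay below parental.

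EED rose against parental in 47C2 (0.79 ± 0.10, adjusted p = 3.85e-05), 3A4 (0.65, 0.000141), 45G3 (0.61, 0.000397), 2H1 (0.56, 0.000626), 2C11 (0.41, 0.00852) and 16F8 (0.33, 0.0322). It did not pass in 8G12 (0.25, 0.125) or 17H5 (-0.24, 0.162). Against 16F8 it was higher in 47C2 (0.46 ± 0.10, adjusted p = 0.0143) and 3A4 (0.31, 0.0356) and lower in 17H5 (-0.57, 0.0027). Leaving out any 1 array of the pair compared ended the 47C2 and 3A4 calls, while the 17H5 call held. The call of 16F8 against parental was lost in the same way. The dim probe set 210656_at was called in 3A4 against parental (0.94 ± 0.31, adjusted p = 0.0293) and in no other comparison. It entered the tests only through the clones in which it was high, 3A4 among them, so this call gives no separate support. Its correlation with 209572_s_at was 0.731 over the 9 clones.

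SUZ12, the scaffold of the complex, was the least variable member, with clone means within 1.14-fold. The signals of 212287_at were between 1541.7 and 1833.6 in the mutant clones, 1710.4 and 1604.6 in 16F8, and 1524.3 and 1599.3 in parental. No difference from parental exceeded 0.18 ± 0.10 (2H1, 95% interval -0.02 to 0.39) and none was called. The probe set 1566190_at, with signals of 13.1 to 33.4, went the other way in all 8 clones (-0.67 to -0.15, none called) and correlated with 212287_at at -0.91 over the 9 clones. The probe set shared with SUZ12P1 was called higher than in parental in 47C2 (0.53), 3A4 (0.40), 45G3 (0.35) and 2H1 (0.33), which cannot be assigned to either gene.

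EZH1, the second catalytic subunit, was lower in 2C11 with 203249_at. Its signal was 83.0 and 67.8 in 2C11, between 84.7 and 135.3 in the other mutant clones, 92.4 and 90.3 in 16F8, and 112.5 and 103.3 in parental. The difference of 2C11 from parental was -0.51 ± 0.15 (adjusted p = 0.0246), and leaving out 2C11 replicate 2 or either parental array ended the call. The probe set 32259_at gave -0.47 (0.0635) and followed 203249_at at a correlation of 0.954. The probe set 239197_s_at, with signals of 55.1 to 99.5 and at or above the median in all 9 clones, gave -0.08 (0.835), and the dim 239198_at and 211310_at gave 0.80 (0.0797) and 0.35 (0.536). The lower EZH1 in 2C11 thus rested on 203249_at. No EZH1 probe set was called against 16F8.

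Compared as genotypes, with the clone as the replicate, no member passed in any of the 4 group comparisons. Mutant against wild-type clones gave 0 of 21 calls (background 0%), IDH1-mutant against wild-type 0 (0%), IDH2-mutant against wild-type 0 (0%) and IDH2-mutant against IDH1-mutant 0 (0.00688%, or 2 probe sets). At an unadjusted p under 0.05 limma counted 1, 3, 0 and 1 member probe sets, beside 2116, 4387, 1462 and 3541 of all 29070. The wild-type group was 2 clones that differed from each other in HELLS, UHRF1, DNMT1 and EED.

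The group means show how far the 2 wild-type clones lay apart. HELLS averaged 427 ± 45.8 in mutant clones (SD over 7 clones) and 328 ± 160 in wild-type clones (2 clones), a difference of 0.47 ± 0.21 (adjusted p = 0.672). UHRF1 averaged 1473 ± 159 in mutant clones and 1228 ± 416 in wild-type clones (0.30 ± 0.16, adjusted p = 0.672). EZH2 averaged 845 ± 97.2 in mutant clones and 721 ± 71.3 in wild-type clones (0.22 ± 0.13, 95% interval -0.05 to 0.50), and EED 523 ± 111 and 428 ± 70.0 (0.26 ± 0.22). The means of 5 of the 7 mutant clones lay above both wild-type means for EZH2, SUZ12 and EED, against 4 for DNMT1, 3 for UHRF1 and 2 for HELLS. Below both lay 1 mutant clone for EED, 1 for DNMT1 and 3 for the SUZ12 probe set 1566190_at, which had 0 above. How many of all tested probe sets show such counts was not computed, so they are no result about the members.

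EZH2 had the smallest adjusted p among the members in IDH1-mutant against wild-type clones, with a difference of 0.35 ± 0.12 (95% interval 0.07 to 0.62, adjusted p = 0.25). Its mean was 919 ± 86.1 in IDH1-mutant clones (SD over 3 clones), 790 ± 67.3 in IDH2-mutant clones (4 clones) and 721 ± 71.3 in wild-type clones (2 clones). The IDH2-minus-IDH1 difference was -0.22 ± 0.10 (95% interval -0.45 to 0.01). DNMT3B was at -0.32 ± 0.26 in IDH1-mutant and -0.09 ± 0.25 in IDH2-mutant against wild-type clones. With parental as the only wild-type clone, HELLS passed in mutant (0.98, adjusted p = 0.0443) and in IDH1-mutant clones (0.97, 0.0456), a value that leaves out the spread between wild-type clones.

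**Figure D4:**
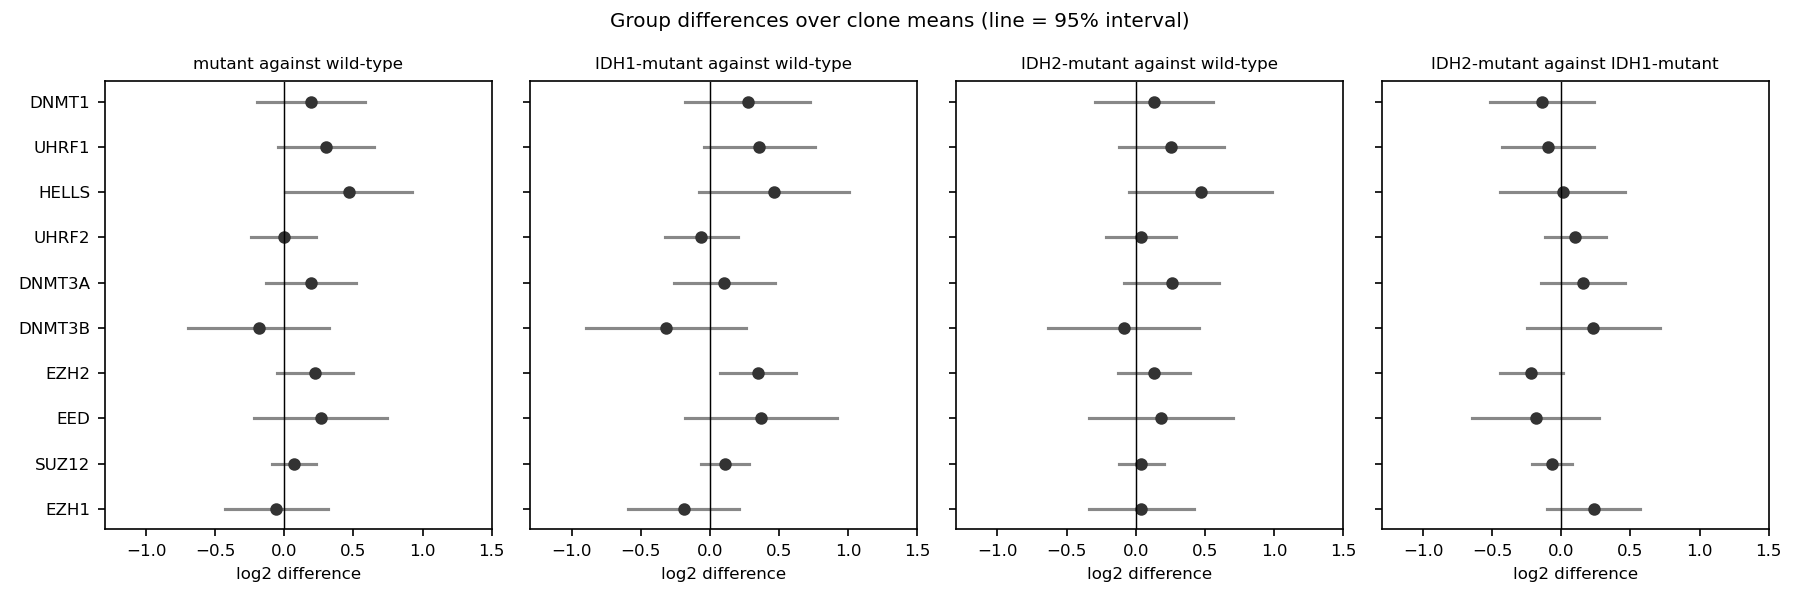
Group differences of the representative probe sets over clone means (log2, points) with 95% intervals (lines), in 4 comparisons. The intervals of all 10 genes include 0 except HELLS in mutant against wild-type clones (0.01 to 0.92) and EZH2 in IDH1-mutant against wild-type clones (0.07 to 0.62), before adjustment.

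Genes that work with the members were described by the same comparisons, whose backgrounds were 8.38% to 31.5% of all probe sets, and list counts near these shares are no result about a list. Of 11 tested partners of the methylation machinery, 2 passed in 8G12 and 17H5, 3 in 2C11, 4 in 47C2 and 16F8, 5 in 2H1 and 3A4 and 6 in 45G3, a share near the background in several clones. PCNA and CDCA7 were the genes of that list called in every clone. PCNA, the sliding clamp that DNMT1 binds, was higher by 0.37 (17H5) to 1.13 (2C11), and CDCA7, the activator of HELLS, by 0.33 (3A4) to 0.96 (45G3). In 16F8 they were higher by 0.86 ± 0.10 and 0.83 ± 0.12. MAT2A, which makes the methyl donor, passed as lower in 45G3 alone (-0.36), and HDAC2 (-0.18 to -0.03) passed nowhere.

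On the side of removal, KDM6B, a demethylase of H3 lysine 27, was lower than in parental in 7 of 8 clones, with -1.27 ± 0.15 in 16F8 (adjusted p = 1.53e-05), -1.26 in 2C11, -1.12 in 45G3 and -0.36 (not called) in 17H5. Against 16F8 it was called higher in 3A4 (0.46) and 17H5 (0.91). GADD45A, a stress gene linked to DNA repair and demethylation, was lower than in parental in 5 clones, with -0.75 in 2C11, -0.69 in 16F8 and 0.12 (not called) in 17H5. SMUG1, a uracil DNA glycosylase, was higher in 4, with 0.57 in 16F8 and -0.07 in 3A4. TET1, an enzyme that oxidises methylcytosine, passed nowhere against parental (-0.16 to 0.67). Of the 7 tested genes listed under methyl-CpG binding at most 3 passed in a clone. Among them were MBD1 in 2H1 (0.38) and 3A4 (0.67) and MBD3 in 2C11 (0.74), 2H1 (0.42) and 45G3 (0.38), while MBD2 (-0.26 to -0.01) and ZBTB4 (-0.28 to 0.05) passed in none.

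Among 9 tested accessory subunits of PRC2, 3A4 had 3 higher and 3 lower than parental, and 8G12 and 17H5 had none. MTF2, a Polycomb-like subunit that recruits PRC2 to CpG islands, was higher in 6 clones, with 0.43 in 2C11 and 0.37 ± 0.10 in 16F8. PHF19, another Polycomb-like subunit, was higher in 4, with 0.90 in 3A4 and 0.71 in 45G3, and -0.05 in 17H5. JARID2, a cofactor that guides the complex, was called higher in 3A4 (0.33) and lower in 2C11 (-0.36), and LCOR was called lower in 3A4 (-0.44). Of 16 tested genes of the Polycomb repressive complexes 1 (PRC1), CBX2 was higher in 6 clones, with 1.21 in 45G3, 1.19 in 47C2 and 1.04 ± 0.21 in 16F8. PHC2 was lower in 3 clones and PCGF1 in 4. PCGF6 was higher in 47C2 (0.32) and 45G3 (0.38). None of these list genes was called in a comparison of genotypes.

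The proliferation genes that accompany DNA replication rose against parental wherever HELLS did. Of 24 tested S phase genes, those called higher numbered 23 in 2C11 and 2H1, 22 in 47C2, 45G3 and 16F8, 21 in 3A4 and 8G12, and 15 in 17H5, with 0 lower in each. E2F1, which drives entry into S phase, was higher by 1.15 (16F8) to 1.92 (3A4) and the helicase gene MCM4 by 1.01 to 1.45, while CCNA2 (0.00 to 0.35) and RRM2 (0.10 to 0.38) passed in 1 clone each. With E2F1, HELLS and UHRF1 correlated at r of 0.703 and 0.637 over 9 clones, and at -0.615 and -0.416 over the 8 without parental. No mutant clone was called against 16F8 in E2F1, in UHRF1 or in the representative HELLS probe set. The E2F1 difference of 16F8 from parental had a standard error of 0.33. The values over 8 clones thus order means not separated from 16F8 and cannot show whether HELLS and UHRF1 follow E2F1. Clone 3A4 had the largest E2F1 difference and the lowest HELLS and UHRF1 means of these 8 clones. Against 16F8, 5 of 24 were lower in 3A4 (background 21.7%), 4 were lower in 17H5 (5.77%), and none was called in the other 5 mutant clones (0.433% to 12.3%). The 3A4 count lay near its background and is no result about the list. The mean of the list stood above parental by 0.55 (17H5) to 0.88 (45G3) and relative to 16F8 lay between -0.24 (17H5) and 0.09 (45G3). In a bulk culture fewer cells in S phase and less RNA per cell cannot be told apart, and the part of cell cycle state in the HELLS, UHRF1 and DNMT1 differences was not tested.

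Over the 9 clone means HELLS followed the S phase mean at r = 0.979, UHRF1 at 0.888 and DNMT1 at 0.632. Without parental, over 8 clones, the values were 0.851, 0.515 and 0.234, so the parental point carried much of the relation for UHRF1 and DNMT1. The other members were at 0.751 (DNMT3A), 0.682 (SUZ12), 0.603 (EZH2), 0.602 (EED), -0.326 (DNMT3B), -0.415 (UHRF2) and -0.569 (EZH1). Without parental UHRF2 was at -0.879, EZH1 at -0.812, EED at 0.622 and SUZ12 at 0.527, and EZH2 (0.238), DNMT3A (0.088) and DNMT3B (-0.027) were weaker. UHRF2, DNMT3A and SUZ12 were not called in the F test, so their values order clone means not separated beyond replicate error. The EZH1 value is that of 203249_at, with which the other EZH1 probe sets correlated at -0.229 (211310_at) to 0.954 (32259_at) over the 9 clones. These clones share 1 parental line and 1 array platform, and the correlations are descriptions of them.

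The clone means of EZH2 and EED were also set beside those of ZEB1, a repressor of epithelial genes. Mean ZEB1 signals were highest in 3A4 (430) and 2H1 (407), followed by 47C2 (305), 45G3 (269) and 2C11 (217), and were lower in 8G12 (158), parental (149), 17H5 (117) and 16F8 (109). Over the 9 clones r with ZEB1 was 0.811 for EZH2, 0.794 for EED, 0.74 for SUZ12 and -0.719 for DNMT3B, and without parental 0.835, 0.782, 0.743 and -0.694. HELLS was at 0.197 and UHRF1 at 0.165 over the 9 clones. How many of all tested genes reach such values with ZEB1 was not computed, so they are descriptions and no result about the members. Among the members, EZH2 correlated with EED at 0.798 and with DNMT3B at -0.779, and EZH1 with UHRF2 at 0.857. SUZ12 and UHRF2 were not called in the F test among the clones, so their values order means not separated beyond replicate error.

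**Figure D5:**
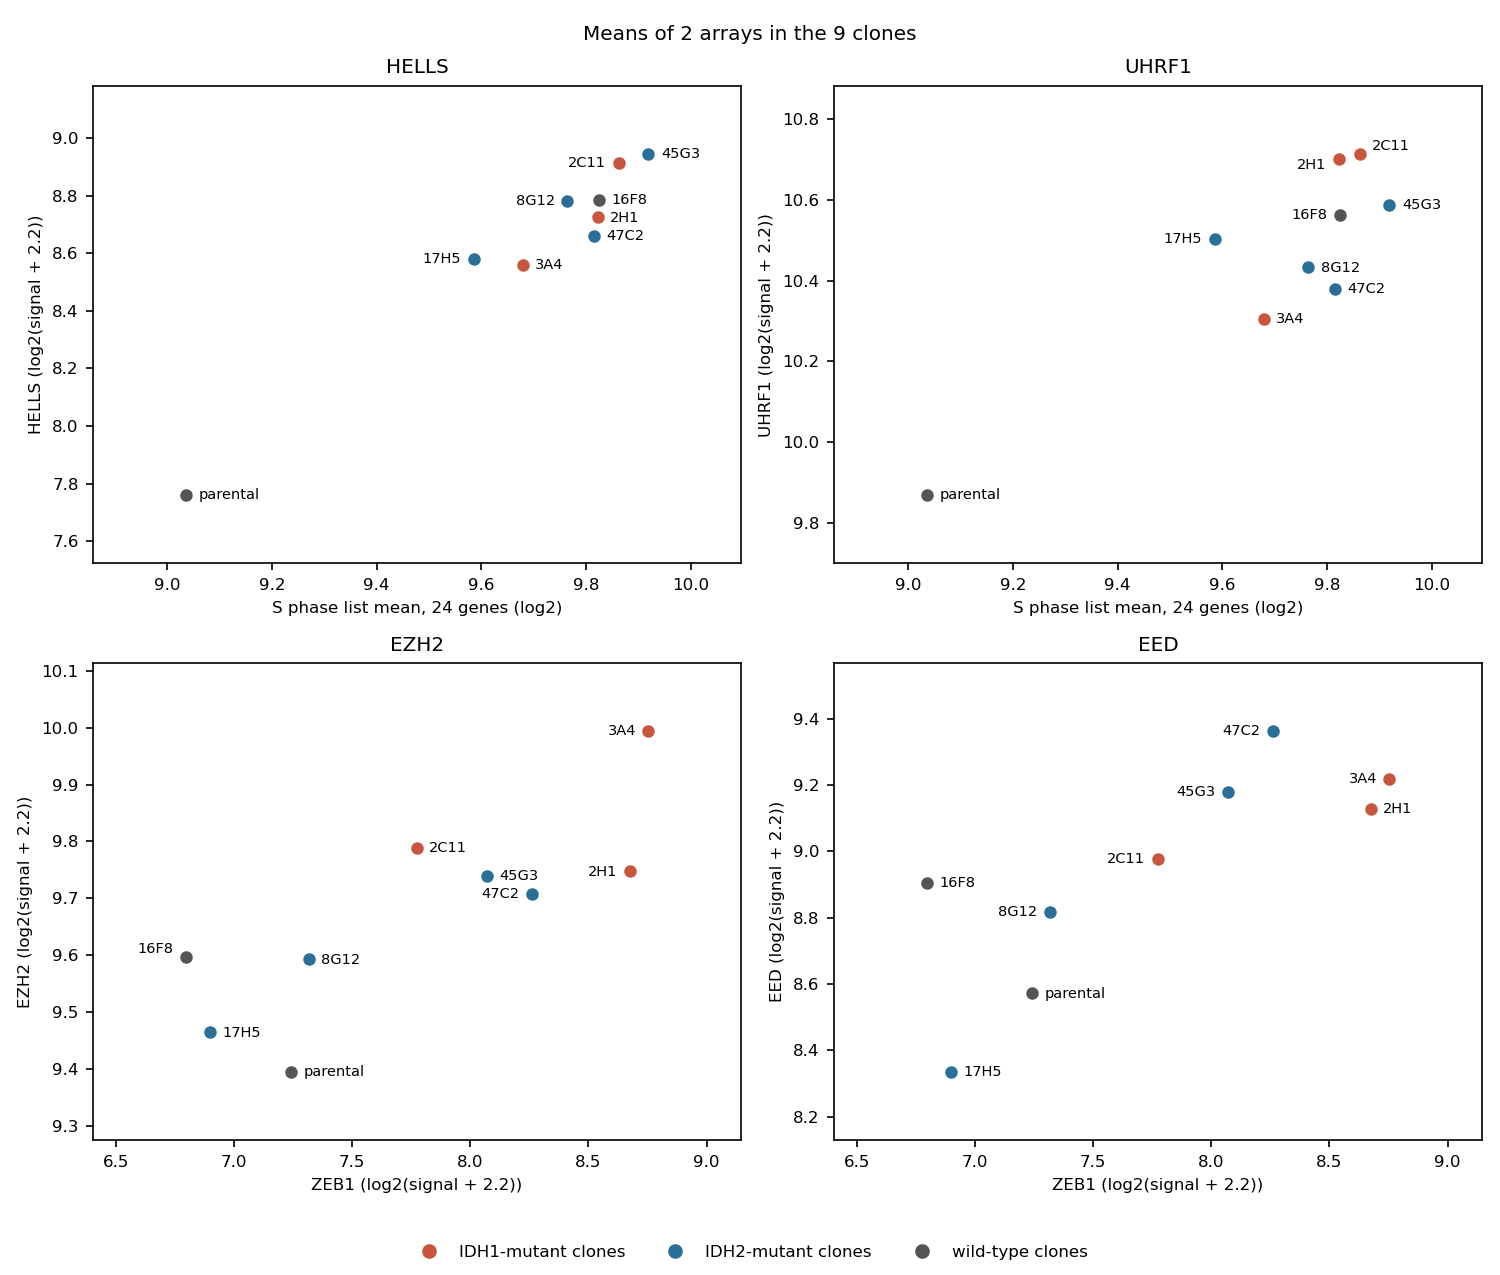
Clone means of 2 arrays (log2 of signal plus 2.2) of HELLS and UHRF1 against the mean of 24 S phase genes, and of EZH2 and EED against ZEB1, coloured by genotype. In the upper panels parental stands alone at the lower left. In the lower panels 3A4, 2H1, 47C2 and 45G3 stand at high ZEB1, 17H5, 16F8, parental and 8G12 at low ZEB1, and 2C11 between them.

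The genes with the most similar pattern over the 9 clones, out of 12521 compared by Pearson r, were MCM3 (0.987) and DTL (0.979) for HELLS, both replication genes, and E2F8 (0.976) and MICB (0.967) for UHRF1. For DNMT1 they were SGO1 (0.938) and ZNF432 (0.911), for UHRF2 GARS1-DT (0.961) and UTRN (0.96), for DNMT3A NCAPD3 (0.968) and BAG5 (0.963), and for DNMT3B HADHAP1 (0.966) and ZNF623 (0.963). For the PRC2 genes they were PIR (0.984) and ABCB8 (0.98) for EZH2, CENPN (0.975) and RNF207 (0.971) for EED, CTCF (0.98) and LHX4 (0.977) for SUZ12, and MAFF (0.966) and TAPT1 (0.945) for EZH1. The highest values out of so many genes over 9 points are large by selection, and without parental those of MCM3, DTL, E2F8 and MICB were 0.909, 0.843, 0.927 and 0.88.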

How the data were processed

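The authors' deposited values are probe set intensities on a linear scale, MAS5 signals per the submitters' processing notes. Which MAS5 version and settings were applied is not given in the sources used here. Without the top and bottom 2% of probe sets, the mean was 150.01 to 150.02 in every array, so arrays had been scaled to 1 level. Array medians were 12.3 to 15.6. Groups came from the titles. Arrays give no counts, and 2 arrays per clone limit the precision.

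Of 54675 probe sets 41091 carried 1 gene symbol, 1801 several and 11721 none, with 62 controls. The analysis used log2(signal + 2.2), an offset equal to the lower quartile of the deposited values. limma 3.58.1 in R 4.3.3 (lmFit, then eBayes with trend) was fitted to all 18 arrays, with each clone against parental, each mutant clone against 16F8 and an F test among clones, and to 9 clone means for the genotypes. All tests were two-sided, with Benjamini-Hochberg adjustment over all tested probe sets, and recovery of known changes was tested on simulated data. Python 3.11.15 and matplotlib 3.10.9 drew the figures. Same-numbered replicates deviated together at r of -0.3755 to 0.3441 over 36 pairs of clones, so numbers do not pair the arrays.

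The members, lists, named genes and tests were chosen with earlier results of these data known. Named were all members, the 2 genes most like each, and up to 2 genes with the highest and 2 with the lowest mean difference from parental in each list, plus IDH1, IDH2, ZEB1 and E2F1. The lists were methylation partners, methyl-CpG binding, demethylation, PRC2 accessory, PRC1 and S phase genes, and colon, fibroblast, haematopoietic and endothelial markers. Alternatives covered the offset, filter, normalization, variance trend, probe set, high poly-A arrays, replicate block, wild-type reference, and leaving out each array or clone. Gene starts and promoter sequences are from RefSeq.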

Additional observations from a re-analysis of the deposited data

Results flagged for a closer look

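Of 42 tests for a sample far from the others of its group, 2 marked a clone, and chance marks about 1 in 20. DNMT1 in 8G12 had a mean log2 of 7.82, lowest of the 7 mutant clones and 0.51 below the next, and HELLS 234040_at in 3A4 had 5.52, 0.73 below the next of the 7. In both, the 2 arrays of the clone lay together, and the cause was not tested.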

How the results depend on the processing

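Of the 42 calls among 190 comparisons of the representative probe sets, other offsets, filters, normalizations, references, models and the poly-A term kept 367 of 378 repeats, with none reversed and 12 values newly past the threshold, 8 of them DNMT3A against parental with the poly-A term. Leaving out 1 array kept 692 of 756 repeats, with none reversed. The 42 calls compare single clones, whereas a changed wild-type reference, the random clone block and a left-out clone entered the genotype comparisons alone. With other probe sets 30 of 45 repeats were kept and 2 reversed, both EZH1 in 2C11 against parental, with 0.80 for 239198_at and 0.35 for 211310_at in place of -0.51. With 1 probe set a gene the calls were 7 of 10 in place of 11 of 21 in the F test, 37 of 80 in place of 67 of 168 against parental and 5 of 70 in place of 9 of 147 against 16F8. Leaving out 1 array moved these counts to 10 to 12, 56 to 68 (fewest without parental replicate 2) and 5 to 10 (fewest without 3A4 replicate 1). With parental alone as wild type, 1 member (HELLS) passed in mutant and 1 in IDH1-mutant against wild-type clones, in place of 0. Leaving out 1 array or clone gave 0 to 1 for both (1 without 16F8). With the replicate block the counts were 11, 67, 10 and 0 for each genotype comparison. Over all probe sets, the counts of 0 for mutant, IDH1-mutant and IDH2-mutant against wild-type clones became 139, 346 and 71 with parental alone, and 4, 670 and 3 with the replicate block. With clone a random block they were 4, 754 and 3. The IDH2-against-IDH1 count of 2 became 182 with the replicate block and 234 with the random one. Signals below the array median in some clones limit 4 tested member probe sets. Group tests rest on 2 wild-type clones, and 3A4 is the lone expressed R132C clone.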
